A study of Homo sapiens with 16 samples.

Results

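The Notch pathway genes described here were 10 genes chosen by name, namely the receptors NOTCH1, NOTCH2 and NOTCH3, the ligands JAG1, DLL1, DLL3 and DLK1, and the transcription factors HES1, HEY1 and HES6. They were chosen with earlier results of these data known. Rows in both deposited tables were found for 9 of the 10 genes, among 26410 genes in all. DLL1 had no matching row and was not analysed here. Values were read from 16 RNA-seq libraries of SH-SY5Y, a human neuroblastoma cell line. The 4 groups were Scr untreated, Scr with doxorubicin, TRPM2 KO untreated and TRPM2 KO with doxorubicin, with 4 libraries each. Scr stands for scrambled control clones (Scr13 and Scr16) and TRPM2 KO for clones edited with CRISPR (KO11 and KO28). Each clone gave 2 libraries per treatment, and all clones had passed through the same editing and selection procedure with a marker donor. Doxorubicin, a drug that damages DNA, was applied for 24 h, at 0.3 µM according to the sample labels and 3 µM according to the series text. A genotype is thus represented by 2 single-cell clones, and libraries of 1 clone are not independent cultures of a genotype, so p-values measure the spread between these libraries.

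Notch receptors are cleaved after binding a ligand on a neighbouring cell, and the released intracellular part joins the DNA-binding protein RBPJ and Mastermind coactivators to switch on target genes. The best known targets, HES1 and HEY1, encode repressors that hold back proneural factors. In the sympathetic lineage from which neuroblastoma arises, Notch signalling is known to restrain neuronal differentiation. HES6 belongs to the same family as HES1 but is known to promote neuronal differentiation. DLK1 is an imprinted ligand-like protein that lacks the domain through which the canonical ligands activate receptors.

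RefSeq promoter sequences (GRCh38.p14) were found for 6 of the 8 members looked up, and not for DLL3 and DLK1. HEY1 was not looked up, so the motifs of its promoter are not known here. The 250 bases before the start of HES1 are shown because they carry the recognition sequences of the pathway, and those of NOTCH1 and NOTCH3 because these receptors changed most with doxorubicin among the receptors. Each is written 5′ to 3′ on the strand of the gene, HES1 from chr3:194135898-194136147 (plus strand), NOTCH1 from chr9:136546049-136546298 (minus strand) and NOTCH3 from chr19:15200996-15201245 (minus strand). Capitals mark the RBPJ core TGGGAA and the N-box CACNAG, the site of HES repressors, searched on both strands and without overlap between them in these windows.
HES1: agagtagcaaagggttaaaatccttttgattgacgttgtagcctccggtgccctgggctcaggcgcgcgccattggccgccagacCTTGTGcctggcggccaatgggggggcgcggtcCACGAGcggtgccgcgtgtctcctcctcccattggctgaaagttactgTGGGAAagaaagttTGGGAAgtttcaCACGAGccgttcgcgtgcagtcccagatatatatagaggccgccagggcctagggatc
NOTCH1: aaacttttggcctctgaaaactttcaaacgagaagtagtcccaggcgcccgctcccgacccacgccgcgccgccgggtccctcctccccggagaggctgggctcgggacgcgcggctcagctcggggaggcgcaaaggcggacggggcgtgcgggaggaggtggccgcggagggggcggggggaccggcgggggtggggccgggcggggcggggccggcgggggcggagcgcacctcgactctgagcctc
NOTCH3: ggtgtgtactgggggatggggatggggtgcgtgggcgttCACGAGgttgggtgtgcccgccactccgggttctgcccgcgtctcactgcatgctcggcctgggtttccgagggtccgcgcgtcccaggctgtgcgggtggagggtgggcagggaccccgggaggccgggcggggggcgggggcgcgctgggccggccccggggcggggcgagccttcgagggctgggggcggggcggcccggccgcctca
The HES1 window held 2 RBPJ cores, from -84 to -79 and from -70 to -65 relative to the start, and 3 N-boxes. The NOTCH3 window held 1 N-box and 0 RBPJ cores. The NOTCH1 window, with a GC content of 76%, held neither sequence. Of all 35116 promoter windows of the same length, 20.8% held the RBPJ core and 32.0% the N-box, so a match describes the letters and not a bound site.

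In GENCODE 29 (GRCh38, the build named in the submitters' processing notes), NOTCH1 spans chr9:136494433-136545786 and NOTCH3 chr19:15159038-15200981, both on the minus strand, while DLK1 spans chr14:100725705-100738224 on the plus strand. A microRNA gene lies within each of NOTCH1 (MIR4673), NOTCH3 (MIR6795) and JAG1 (MIR6870) on the same strand. NOTCH1, JAG1 and HES6 overlap a gene on the opposite strand (AL592301.1, AL050403.2 and AC012485.1), and since the strand setting of the counting is not given in the sources used here, reads of these pairs cannot be told apart.

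The read total on genes ranged from 10481177 to 25086085 over the libraries. Deposited values are read counts scaled to library size and normalized by the authors (normalized CPM). The edited gene was read first. TRPM2, the channel that was edited, lay between 0 and 0.118 normalized CPM in the untreated Scr libraries, at most 3 reads, and between 1.41 and 2.23 in those of KO11 and KO28. After doxorubicin the ranges were 0.0594 to 1.33 in Scr and 0.658 to 1.83 in KO11 and KO28. The gene-wide read count thus goes against the label in untreated cells. Since the edit removed only the start of the coding sequence and shifted the frame of the rest, these reads do not check the edit itself, and the clones are called "libraries labelled TRPM2 KO" where a direction is given. Libraries are given below in the order Scr13, Scr13, Scr16, Scr16 and KO11, KO11, KO28, KO28. Of the markers of the adrenergic list, PHOX2A, HAND2, GATA2, GATA3, ISL1, DBH and CHGB were each above 120 normalized CPM in every library, led over all libraries by DBH, which makes noradrenaline, and after doxorubicin by the transcription factor HAND2 in both genotypes. CHGA lay between 0.356 and 26.4 normalized CPM, and TH, the first enzyme of noradrenaline synthesis, between 0 and 1.13, with 0 reads in some libraries.

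Per kilobase of exon, DLK1 was the most abundant member in every group, at 50.5 ± 8.79 normalized CPM per kb in untreated Scr libraries (SD, n = 4) and 83.0 ± 14.1 in untreated libraries labelled TRPM2 KO. HES6 followed at 15.04 ± 0.901 and 12.2 ± 4.24. In untreated Scr libraries the next members were HEY1 at 8.68 ± 1.90, NOTCH2 at 7.28 ± 0.890 and DLL3 at 6.83 ± 0.699 normalized CPM per kb, where HEY1 overlapped in level with NOTCH2 and NOTCH2 with DLL3. NOTCH3 was lower at 5.46 ± 0.498 and did not overlap with DLL3. HES1 at 1.73 ± 0.453 and JAG1 at 0.453 ± 0.183 were scarce, and NOTCH1 was the lowest of the members at 0.270 ± 0.155, overlapping with JAG1. After doxorubicin NOTCH1 stood at 3.59 ± 0.948 normalized CPM per kb in Scr libraries, above HES1 and JAG1, and at 6.75 ± 1.38 in libraries labelled TRPM2 KO, where it overlapped with NOTCH2, its neighbour above, and HEY1, its neighbour below.

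**Figure D1:**
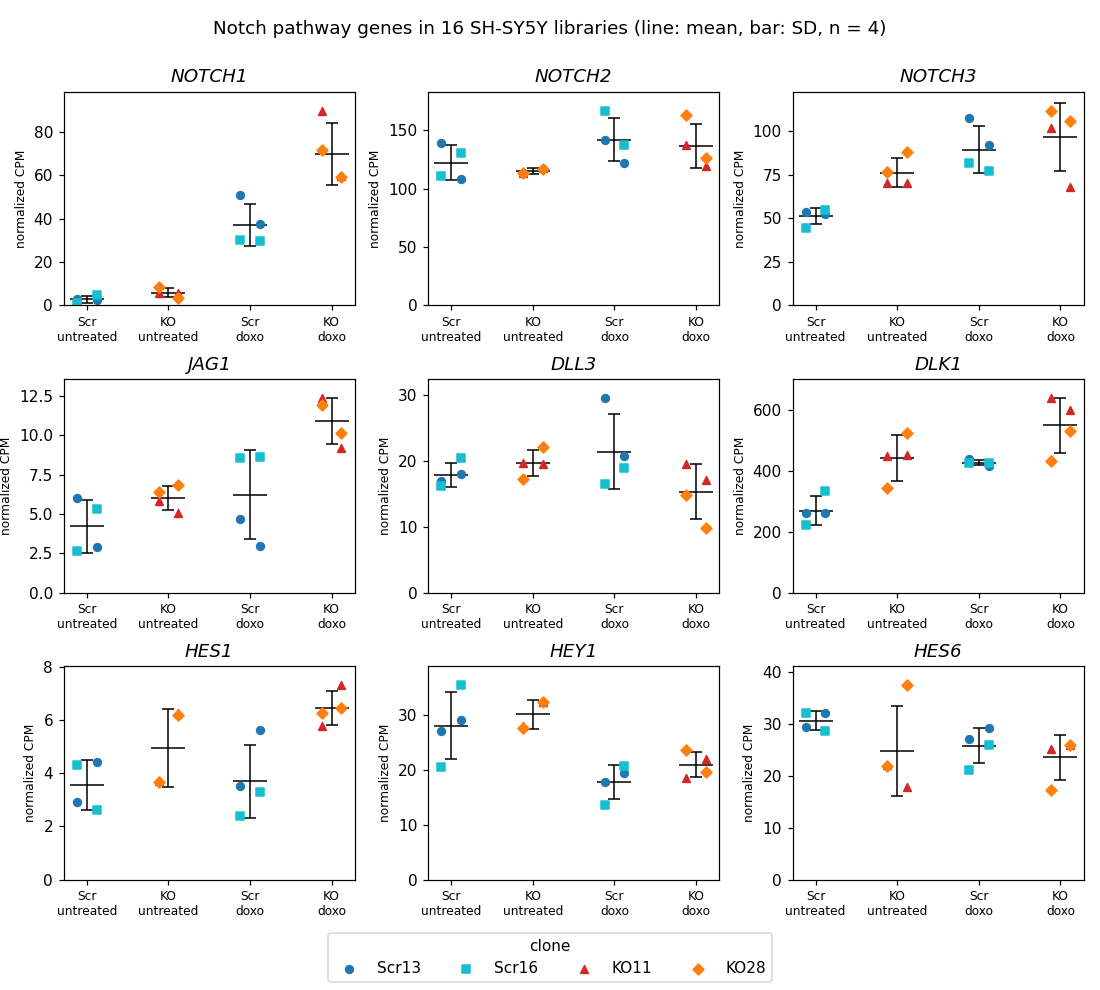
Normalized CPM of the 9 members in each of the 16 libraries (y axis, from 0) by group (x axis), with colour and shape for the clone, a line for the mean and bars for the SD of 4 libraries. NOTCH1 lies under 9 normalized CPM in all 8 untreated libraries and at 29.8 or more in all 8 doxorubicin libraries, while HEY1 is lower after doxorubicin in both genotypes.

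Doxorubicin raised NOTCH1, the receptor that was scarcest in untreated cells, in all 4 clones. In Scr libraries NOTCH1 lay at 2.79 and 2.53 normalized CPM (Scr13) and 0.982 and 4.88 (Scr16) untreated, and at 50.9, 37.8, 30.3 and 29.8 after doxorubicin. In libraries labelled TRPM2 KO it lay at 5.95 and 5.66 (KO11) and 8.32 and 3.21 (KO28) untreated, and at 89.7, 59.8, 71.7 and 59.1 after doxorubicin. The treated and untreated libraries did not overlap in either genotype. Since it is not stated whether the 2 tables were normalized together, the treatments were compared on reads that were normalized again over the 16 libraries, with the clone as a term. On the log2(normalized CPM + 1) scale NOTCH1 rose by 3.40 (SE 0.26, adjusted p = 5.77e-08, limma) in Scr and by 3.43 (SE 0.18, adjusted p = 1.49e-13) in libraries labelled TRPM2 KO. Ranked by that log2 fold change, NOTCH1 was number 3 of 14378 genes tested in Scr and number 2 of 14513 in libraries labelled TRPM2 KO. The rise per clone was 3.62 in Scr13, 3.18 in Scr16, 3.45 in KO11 and 3.40 in KO28. With between 16 and 124 reads on NOTCH1 in each untreated library, the untreated level is known less well than the treated one.

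NOTCH3, a receptor also found on vascular smooth muscle, rose as well. Untreated Scr libraries lay between 44.4 and 55.0 normalized CPM and doxorubicin Scr libraries between 77.2 and 107, without overlap, a log2 change of 0.78 (SE 0.09, adjusted p = 1.64e-05). In libraries labelled TRPM2 KO the ranges of 69.9 to 87.9 untreated and 67.8 to 111 after doxorubicin overlapped, and the log2 change was 0.32 (SE 0.10, adjusted p = 0.0218). That call was lost when the first KO11 doxorubicin library was left out (log2 change 0.22, adjusted p = 0.14), when the first KO28 untreated library was left out (0.27, adjusted p = 0.0936) and when the first KO28 doxorubicin library was left out (0.29, adjusted p = 0.059). It was also lost without clone KO28 (0.24, adjusted p = 0.258), without a clone term (0.0619) and without the filter on low values (0.136). NOTCH2, the most abundant receptor per kb of exon in untreated Scr libraries, gave log2 changes of 0.21 (SE 0.09, adjusted p = 0.16) and 0.23 (SE 0.08, adjusted p = 0.0503), neither past the threshold of 0.05. It passed in Scr without the first Scr13 untreated library (adjusted p = 0.0423), and in libraries labelled TRPM2 KO without the second KO11 doxorubicin library (0.0257), without the second KO28 doxorubicin library (0.027) and with the replicate number as a block (0.0433).

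Among the ligands, DLK1 rose with doxorubicin in both genotypes. It lay between 220 and 332 normalized CPM in untreated Scr libraries and between 416 and 438 after doxorubicin, a log2 change of 0.68 (SE 0.09, adjusted p = 5.68e-05). In libraries labelled TRPM2 KO the level was 448 and 451 in KO11 and 341 and 523 in KO28 untreated, and 637, 597, 431 and 529 after doxorubicin. These ranges overlapped, and the log2 change of 0.32 (SE 0.10, adjusted p = 0.0214) rested on KO11, being 0.46 in that clone and 0.18 in KO28. Without clone KO11 the adjusted p was 0.458, and the call was also lost without either untreated KO11 library (adjusted p = 0.0785 and 0.0805), the first KO11 doxorubicin library (0.0817), the first KO28 untreated library (0.142) or the second KO28 doxorubicin library (0.0675), with DESeq2 on recovered reads (0.274), without a clone term (0.0505) and without the filter (0.201).

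JAG1, a canonical activating ligand, was at 5.79 and 5.06 normalized CPM (KO11) and 6.37 and 6.86 (KO28) in untreated libraries labelled TRPM2 KO and at 12.3, 9.20, 11.9 and 10.2 after doxorubicin. The treatments did not overlap, and the log2 change was 0.76 (SE 0.19, adjusted p = 0.00502), a call lost without clone KO11 (0.66, adjusted p = 0.229). In Scr libraries JAG1 was at 5.98, 2.88, 2.64 and 5.34 untreated and at 4.69 and 2.97 (Scr13) and 8.55 and 8.63 (Scr16) after doxorubicin. The change there was 0.43 (SE 0.29, adjusted p = 0.368), with -0.13 in Scr13 and 0.99 in Scr16, so the Scr clones differed in direction. DLL3, a ligand that acts inside its own cell to block Notch signalling, gave log2 changes of 0.22 (SE 0.16, adjusted p = 0.43) in Scr and -0.37 (SE 0.16, adjusted p = 0.114) in libraries labelled TRPM2 KO.

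Among the transcription factors that answer to Notch, HEY1 fell in both genotypes, from 27.0, 29.2, 20.6 and 35.4 to 17.8, 19.4, 13.6 and 20.7 normalized CPM in Scr libraries and from 28.0, 32.3, 27.7 and 32.4 to 18.5, 21.9, 23.6 and 19.7 in libraries labelled TRPM2 KO. The log2 change was -0.62 (SE 0.17, adjusted p = 0.0204) in Scr and -0.50 (SE 0.13, adjusted p = 0.00546) in libraries labelled TRPM2 KO, and HEY1 was lower in all 4 clones. The Scr call was lost without the second Scr13 untreated library (adjusted p = 0.0631), the first Scr13 doxorubicin library (0.0648), the second Scr16 untreated library (0.102) or the first Scr16 doxorubicin library (0.0691), without clone Scr13 (0.275) or Scr16 (0.0631) and without the filter on low values (0.121). The call in libraries labelled TRPM2 KO was lost without clone KO11 (-0.45, adjusted p = 0.231). HES1, whose promoter window holds the pair of RBPJ cores printed above, was at 25 to 116 reads per library and gave log2 changes of 0.02 (SE 0.26, adjusted p = 0.976) and 0.35 (SE 0.22, adjusted p = 0.295). HES6, the relative of HES1 with the opposite role, gave -0.25 (SE 0.12, adjusted p = 0.217) and -0.04 (SE 0.17, adjusted p = 0.919).

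In Scr libraries 4 of the 9 members passed the threshold with doxorubicin, 3 higher and 1 lower, against 12.2% of all genes tested (6.92% higher and 5.24% lower). In libraries labelled TRPM2 KO 5 of the 9 passed, 4 higher and 1 lower, against 19.6% of all genes (11.4% higher and 8.21% lower). The median log2 change over the members was 0.22 and 0.32, beside -0.01 and 0.02 over all genes tested. The members and the lists read below were chosen with earlier results of these data known. Here and below, such shares and medians are therefore a description and not a test.

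**Figure D2:**
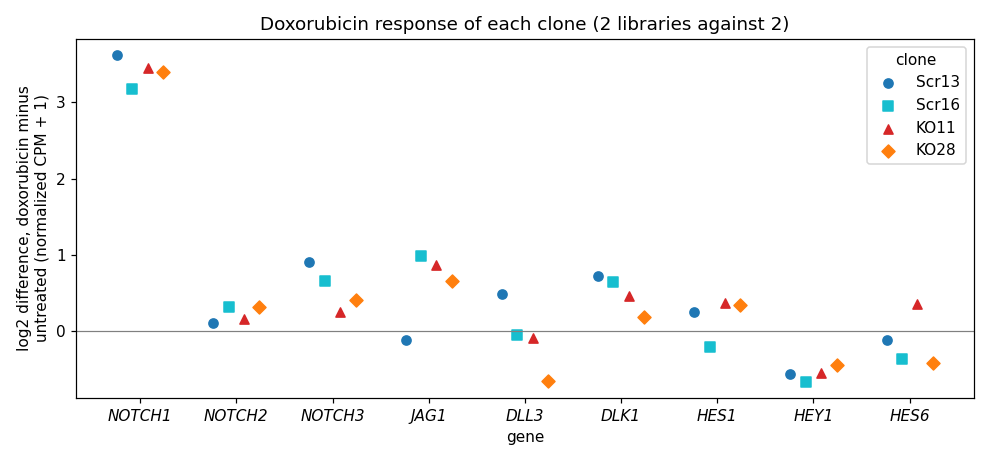
Log2 difference of normalized CPM + 1 between the 2 doxorubicin and the 2 untreated libraries of each clone (y axis) for the 9 members (x axis), with colour and shape for the clone. NOTCH1 lies between 3.18 and 3.62 in the 4 clones and HEY1 between -0.67 and -0.45, while the clones of a genotype lie on both sides of 0 for JAG1, DLL3 and HES1 in Scr and for HES6 in KO.

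Without treatment NOTCH3 and DLK1 differed between the genotypes. NOTCH3 was at 70.2, 69.9, 76.6 and 87.9 normalized CPM in libraries labelled TRPM2 KO and at 53.3, 52.3, 44.4 and 55.0 in Scr libraries. The groups did not overlap, and NOTCH3 was higher by 0.56 on the log2 scale (SE 0.10, adjusted p = 0.000858). DLK1 was at 448, 451, 341 and 523 against 260, 261, 220 and 332, again without overlap, and was higher by 0.71 (SE 0.11, adjusted p = 0.000362). For each gene an exact permutation test (two-sided, 4 libraries on either side) gave p = 0.0286, the smallest value that 4 libraries against 4 allow. This value follows from the lack of overlap alone and adds nothing to it. The test also treats the libraries of 1 clone as independent, which they are not.

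NOTCH1 was at 5.95, 5.66, 8.32 and 3.21 normalized CPM against 2.79, 2.53, 0.982 and 4.88 in untreated Scr libraries, a log2 difference of 0.88 (SE 0.30, adjusted p = 0.12). The groups overlapped, since the second KO28 library lay under the second Scr16 library, and without either of these libraries the adjusted p was 0.0386 and 0.0412. JAG1 (0.48, SE 0.24, adjusted p = 0.374), HES1 (0.37, SE 0.24, adjusted p = 0.543), DLL3 (0.13, SE 0.14, adjusted p = 0.767), HEY1 (0.12, SE 0.14, adjusted p = 0.796) and NOTCH2 (-0.08, SE 0.08, adjusted p = 0.782) did not pass. HES6 had a log2 difference of -0.34 (SE 0.16, adjusted p = 0.351), and without the second KO28 library, at 37.5 normalized CPM the highest HES6 value of all 16 libraries, the difference was -0.55 (adjusted p = 0.00988), and without clone KO28 it was -0.59 (adjusted p = 0.0144). Thus 2 of the 9 members passed, both higher, against 4.84% of all 14364 genes tested (2.3% higher and 2.54% lower), and the median log2 difference was 0.37 over the members beside -0.01 over all genes. The groups of 2 of the 9 members did not overlap, against 9.29% of all genes.

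After doxorubicin NOTCH1 and DLK1 differed. NOTCH1 was at 89.7, 59.8, 71.7 and 59.1 normalized CPM in libraries labelled TRPM2 KO and at 50.9, 37.8, 30.3 and 29.8 in Scr libraries, without overlap, and was higher by 0.91 on the log2 scale (SE 0.15, adjusted p = 0.000256). DLK1 was at 637, 597, 431 and 529 against 438, 416, 425 and 426 and was higher by 0.35 (SE 0.09, adjusted p = 0.0189). The first KO28 library lay within the Scr range. The DLK1 call was lost without the first KO11 library (log2 difference 0.27, adjusted p = 0.106), without the second (0.30, adjusted p = 0.0707) and without clone KO11 (0.17, adjusted p = 0.527), and also without clone Scr13 (0.0678), without clone Scr16 (0.0791) and without the filter on low values (0.139).

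JAG1 at 12.3, 9.20, 11.9 and 10.2 normalized CPM against 4.69, 2.97, 8.55 and 8.63 and HES1 at 5.76, 7.31, 6.28 and 6.46 against 3.50, 5.61, 2.38 and 3.31 did not overlap between the groups either. Their log2 differences were 0.81 (SE 0.25, adjusted p = 0.0507) and 0.70 (SE 0.24, adjusted p = 0.0784), short of the threshold. The exact permutation test gave p = 0.0286 for each, a value that again follows from the lack of overlap alone. JAG1 passed without the first Scr16 library (adjusted p = 0.0112), without the second (0.0266), without clone Scr16 (0.000663), with the replicate number as a block (0.0471) and with the clone as a random block (0.0369, at an estimated correlation within clones of -0.0987), but not with reads summed per clone (0.118). HES1 passed without the second Scr13 library (adjusted p = 0.032) and without clone Scr13 (0.0301). NOTCH3, which had differed untreated, was at 101, 67.8, 111 and 106 against 107, 91.8, 81.5 and 77.2, a log2 difference of 0.10 (SE 0.13, adjusted p = 0.75). DLL3 (-0.46, SE 0.20, adjusted p = 0.177), HEY1 (0.22, SE 0.15, adjusted p = 0.462), HES6 (-0.14, SE 0.15, adjusted p = 0.681) and NOTCH2 (-0.06, SE 0.10, adjusted p = 0.816) did not pass. In all, 2 of the 9 members passed, both higher, against 8.69% of all 14572 genes tested (4.52% higher and 4.17% lower), and the median log2 difference was 0.22 over the members beside 0.01 over all genes. The groups of 3 of the 9 members did not overlap, against 13.2% of all genes.

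**Figure D3:**
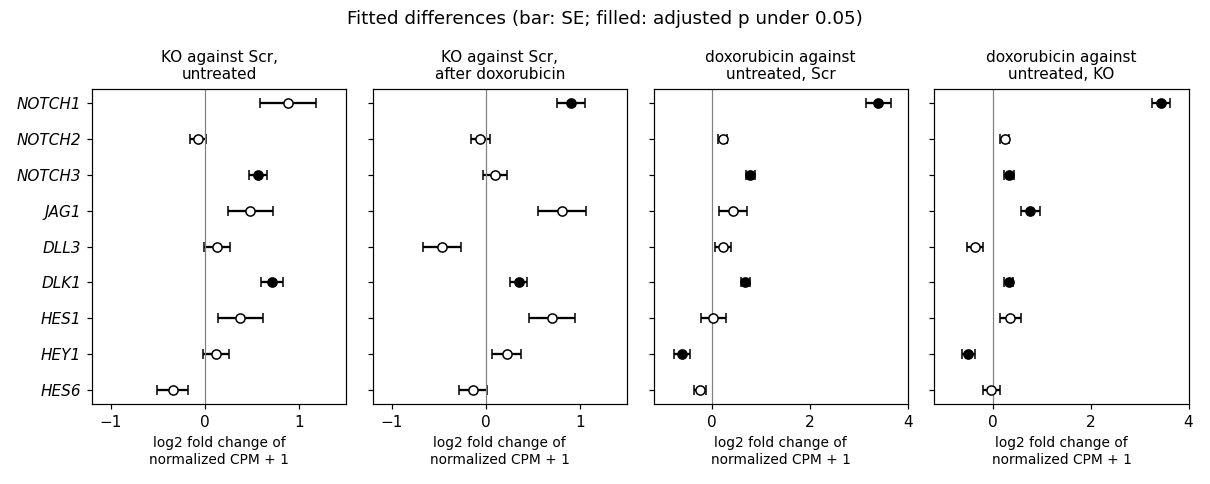
Log2 fold change of normalized CPM + 1 (x axis, bars are SE) for the 9 members (y axis) in the comparisons of genotypes within a treatment and of treatments within a genotype, with filled points for an adjusted p under 0.05. NOTCH1 at 3.40 and 3.43 stands apart in both doxorubicin panels, and the x axes of these panels are wider than those of the genotype panels.

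Whether the response to doxorubicin differed between the genotypes was tested as the interaction over the 16 libraries. None of the 9 members passed with limma, with edgeR or with DESeq2, and 3, 3 and 2 of them had an unadjusted p under 0.05 with these tools. Of all 15325 genes 5 passed, which is 0.0326%. NOTCH1's response differed by 0.03 on the log2 scale, with a 95% interval from -0.67 to 0.73. For NOTCH3 the response was smaller by 0.46 in libraries labelled TRPM2 KO (log2 difference of responses -0.46, interval from -0.75 to -0.16, adjusted p = 0.317). The values for DLL3 and DLK1 were -0.59 (interval from -1.07 to -0.10, adjusted p = 0.496) and -0.36 (interval from -0.66 to -0.05, adjusted p = 0.508). A difference between the genotypes in the response of a member was therefore not shown, and these intervals leave room for differences of the size given.

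A wider list of 52 genes of the pathway, of which 50 had rows, was read in the same way, and 44 or 45 of them passed the filter in each comparison. In untreated cells 3 of 44 differed by genotype, 1 higher and 2 lower, with a median log2 difference of 0.03, beside 4.84% of all genes tested. A share this near the background is not a result about the list, and the genes are given for their own values. JAG2, the other Jagged ligand, was higher at 12.6 ± 0.912 normalized CPM (SD, n = 4) in libraries labelled TRPM2 KO against 7.22 ± 0.280 in Scr (log2 difference 0.72, SE 0.16, adjusted p = 0.00978), a call lost without clone KO11 (adjusted p = 0.0564), Scr13 (0.114) or Scr16 (0.102). DNER, a noncanonical ligand of neurons, was lower at 6.02 ± 1.85 against 11.3 ± 1.31 (-0.84, SE 0.21, adjusted p = 0.0211), a call lost without either Scr13 library (adjusted p = 0.0524 and 0.0826) or the first Scr16 library (0.0662), without clone Scr13 (0.26), Scr16 (0.144) or KO28 (0.0503) and with no filter (0.159). TLE1, a Groucho corepressor that works with HES proteins, was lower at 53.5 ± 2.25 against 75.8 ± 5.85 (-0.49, SE 0.09, adjusted p = 0.000968).

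After doxorubicin 4 of 45 differed by genotype, 1 higher and 3 lower, with a median log2 difference of 0.04, a share close to the 8.69% of all genes tested. TLE1 (-0.61, SE 0.12, adjusted p = 0.00175) and DNER (-0.70, SE 0.22, adjusted p = 0.0499) were again lower. The DNER call was lost without either KO11, either Scr13 or either KO28 library, with adjusted p-values from 0.0573 to 0.174, and with reads summed per clone (0.0954), edgeR (0.0569), a pseudocount of 0.25 (0.0545) or no filter (0.168). It was also lost without clone KO11 (0.246), Scr13 (0.29) or KO28 (0.242). Of the Mastermind coactivators of the RBPJ complex, MAML2 was higher at 5.82 ± 2.39 normalized CPM against 1.21 ± 0.692 (log2 difference 1.61, SE 0.30, adjusted p = 0.00109), and MAML3, a far more abundant transcript, was lower at 148 ± 8.12 against 205 ± 15.9 (-0.47, SE 0.08, adjusted p = 0.000253), while MAML1 did not pass at 81.2 ± 5.79 against 79.2 ± 14.7.

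With doxorubicin 6 of 45 genes of the list were higher and 1 lower in Scr, against 6.92% and 5.24% of all genes tested, and 9 of 45 were higher and 2 lower in libraries labelled TRPM2 KO, against 11.4% and 8.21% of all genes. Most of the list did not pass in either genotype, and the median log2 change was 0.09 and 0.10. JAG2 had the largest rise of those that passed in Scr, from 7.22 ± 0.280 to 20.5 ± 5.34 normalized CPM (log2 change 1.35, SE 0.18, adjusted p = 6.36e-05), and rose from 12.6 ± 0.912 to 24.1 ± 4.52 in libraries labelled TRPM2 KO (0.87, SE 0.15, adjusted p = 9.27e-05). RFNG, a Fringe enzyme that adds sugars to Notch receptors, rose by 0.54 (SE 0.10, adjusted p = 0.00101) and 0.59 (SE 0.09, adjusted p = 2.23e-05). MIB2, a ubiquitin ligase that acts on ligands, rose by 0.51 (SE 0.09, adjusted p = 0.00117) and 0.57 (SE 0.11, adjusted p = 0.000629), and NEURL1B, of the same kind, by 0.65 (SE 0.10, adjusted p = 0.00033) and 0.50 (SE 0.08, adjusted p = 5.89e-05). DTX4, of the Deltex family, rose by 0.65 (SE 0.21, adjusted p = 0.0493) and 0.64 (SE 0.19, adjusted p = 0.0179). The DTX4 call was lost in Scr when any library other than the first Scr16 untreated one was left out (adjusted p from 0.0623 to 0.147) and with edgeR (0.0684), library size alone (0.0557), a pseudocount of 0.25 (0.053) or no filter (0.17), and in libraries labelled TRPM2 KO with no filter (0.0802) and without the first KO11 untreated library (0.0702) or the first KO11 doxorubicin library (0.0681). DTX3L, of the same family, fell by 0.59 on the log2 scale in Scr (log2 change -0.59, SE 0.19, adjusted p = 0.0467), a call lost when any library other than the second Scr13 untreated and the second Scr16 untreated was left out (adjusted p from 0.0621 to 0.197), without a clone term (0.0788) and with no filter (0.147). In libraries labelled TRPM2 KO MAML2 rose by 1.22 (SE 0.34, adjusted p = 0.0123), while TLE1 (-0.30, SE 0.11, adjusted p = 0.0445) and MAML3 (-0.23, SE 0.07, adjusted p = 0.0218) fell. The MAML2 call was lost without the first KO11 doxorubicin library (adjusted p = 0.0532), the second KO28 untreated library (log2 change 0.74, adjusted p = 0.0606), which held 1 read on MAML2, or the first KO28 doxorubicin library (0.0777), as well as with edgeR (0.0626), with DESeq2 (0.296) and without the filter (0.177), and the MAML3 call without the second KO11 untreated (0.087), second KO11 doxorubicin (0.0579) or second KO28 untreated library (0.0627). The TLE1 call was lost without either KO11 untreated library, either KO28 untreated library, the second KO11 doxorubicin library or the second KO28 doxorubicin library (adjusted p from 0.0556 to 0.256) and with edgeR (0.0568), without a clone term (0.0577) or with no filter (0.13). Without clone Scr13 the Scr calls of JAG2, RFNG, MIB2, NEURL1B, DTX4 and DTX3L were lost (adjusted p from 0.0746 to 0.539), and without clone Scr16 those of DTX4 (0.0668) and DTX3L (0.168). In libraries labelled TRPM2 KO the calls of JAG2, MIB2, DTX4, TLE1 and MAML3 were lost without clone KO11 (adjusted p from 0.106 to 0.485) and those of MAML2, TLE1 and MAML3 without clone KO28 (0.0826 to 0.122). MAML2 was not tested without clone KO11, since 1 of the KO28 untreated libraries was under the filter. The NEURL1B calls were not put through the alternatives in libraries labelled TRPM2 KO. None of the list passed in the interaction, with 4 at an unadjusted p under 0.05 by limma and 5 by edgeR and by DESeq2.

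**Figure D4:**
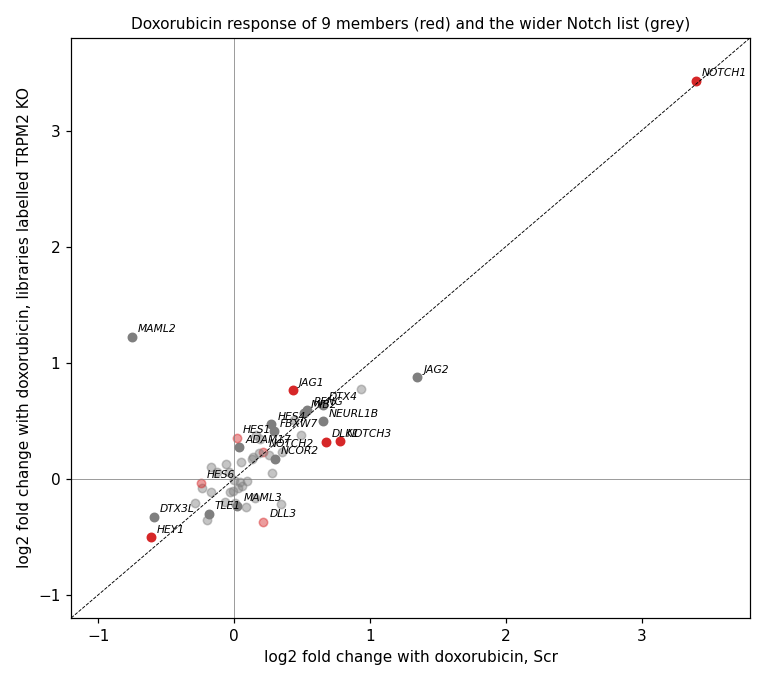
Log2 fold change with doxorubicin in Scr (x axis) and in libraries labelled TRPM2 KO (y axis) for the 9 members (red) and the wider list (grey), with paler points for genes past the threshold in neither genotype and a dashed line of equal change. NOTCH1 lies on the line at 3.40 and 3.43, and HEY1 is the red point below 0 on both axes that passed in both genotypes.

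Proneural factors and their ID inhibitors, on which Notch targets act, were read as well. ID4, an inhibitor of basic helix-loop-helix factors, was higher in libraries labelled TRPM2 KO at 7.62 ± 1.33 normalized CPM against 1.83 ± 0.447 untreated (log2 difference 1.61, SE 0.22, adjusted p = 7.63e-05) and at 8.97 ± 2.36 against 2.35 ± 0.632 after doxorubicin (1.56, SE 0.25, adjusted p = 0.000154). ID1, ID2 and ID3, which are far more abundant, did not pass between genotypes in either treatment. Untreated, they were at 78.5 ± 9.88, 216 ± 8.92 and 123 ± 9.29 normalized CPM in libraries labelled TRPM2 KO. In untreated Scr libraries they were at 94.0 ± 18.0, 214 ± 14.2 and 127 ± 21.4. NEUROD1 was untreated at 0.398 ± 0.426 against 2.18 ± 0.395 normalized CPM (SD, n = 4), with between 0 and 17 reads in libraries labelled TRPM2 KO. It reached 1 normalized CPM in the Scr libraries alone and passed the filter through that group, so no test is given. TCF3 was lower after doxorubicin by a log2 difference of -0.26 (SE 0.08, adjusted p = 0.0461), a call lost without either KO11, either Scr16 or either KO28 library (adjusted p from 0.0626 to 0.186) and with reads summed per clone (0.0615), edgeR (0.0555), a pseudocount of 0.25 (0.0507) or no filter (0.151). It was also lost without clone KO11 (0.313), Scr16 (0.341) or KO28 (0.181). With doxorubicin TCF3 fell in libraries labelled TRPM2 KO, by a log2 change of -0.29 in KO11 and -0.35 in KO28. That call was kept under all 17 alternatives (largest adjusted p = 0.0393). In the Scr clones the change was -0.11 (Scr13) and 0.00276 (Scr16). None of the 11 genes of the proneural list passed in the interaction, so a difference between the genotypes in the TCF3 response was not shown.

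Markers of the mesenchymal state differed by genotype as well. The adrenergic list summed to 6599 ± 474 normalized CPM (SD, n = 4) in libraries labelled TRPM2 KO against 6352 ± 434 in Scr untreated. After doxorubicin its sums were 6356 ± 293 against 6783 ± 355. Of the mesenchymal list, 6 of 7 genes tested after doxorubicin differed, beside 8.69% of all genes tested. Of these, 5 were higher and 1 lower in libraries labelled TRPM2 KO. The list was chosen with earlier results of these data known, so this share is not a test. Untreated, COL6A3 met the filter through the libraries labelled TRPM2 KO. It lay at 1.27 to 5.23 normalized CPM there and at 0.114 to 1.42 in Scr, so no count is given for untreated cells. The summed level of the mesenchymal list was 631 ± 87.9 normalized CPM (SD, n = 4) against 426 ± 114 untreated and 678 ± 102 against 416 ± 63.2 after doxorubicin. The untreated sums overlapped, at 525 to 717 in libraries labelled TRPM2 KO and 340 to 593 in Scr. After doxorubicin they did not, at 554 to 800 against 347 to 500. TWIST1, its most abundant gene over all libraries and in Scr, went the other way, with log2 differences of -0.53 and -0.64, while FN1, its most abundant gene in libraries labelled TRPM2 KO and the gene of fibronectin, COL1A1, COL3A1 and YAP1 were higher in both treatments. The part of these markers in the genotype differences of NOTCH1, NOTCH3 and DLK1 was not tested. In bulk RNA fewer cells of a type and less RNA per cell cannot be told apart. Markers of leukocytes summed to at most 1.67 and those of endothelial cells to at most 1.33 normalized CPM in any library, and Schwann cell markers to at most 5.87.

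DLK1, which differed by genotype in both treatments, was set beside all other genes tested by Pearson's r of log2(normalized CPM + 1) over the 16 libraries, which share clones and treatments. The highest values were those of IGF2 (r = 0.88), RTL1 (r = 0.86) and METTL7A (r = 0.86).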

How the data were processed

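Poly(A) RNA of 16 SH-SY5Y libraries was sequenced with a directional kit. The submitters' processing notes name bcl2fastq, HISAT2 2.1.0, HTSeq, edgeR and GRCh38. The strand setting of the counting and the annotation release are not given in the sources used here. The deposited values per library are a signal, read counts that the authors scaled to library size (normalized CPM) with a normalization factor of 0.974 to 1.03. Every value was a whole multiple of the step of its library (largest deviation 5.39e-05 reads, tolerance 0.01), so whole reads were recovered for 100% of the values. The deposited columns of the authors' own comparison (fold changes, p-values, q-values and a ranking) were not used.

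Identifiers were named from gene tables (95.0% matched). The floor of 3 reads is worth 0.118 to 0.285 normalized CPM and covers counting error only. No replicate pair was within counting noise, with a mean chi-square per gene of 7.79 to 16.9 where 1 is expected from counting alone.

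A gene was tested if 4 or more libraries of the comparison reached 1 normalized CPM. The test was that of limma 3.58.1 (R 4.3.3) (moderated by empirical Bayes, prior variance following abundance), on values transformed as log2(normalized CPM + 1), with Benjamini-Hochberg adjustment over all genes tested (threshold 0.05). Genotypes were compared within a treatment on the deposited values. Treatments and the interaction were compared on recovered reads with TMM factors over the 16 libraries and the clone as a term. Single members were also compared between genotypes with a two-sided exact permutation test. Alternatives were no filter, a pseudocount of 0.25, library size alone, edgeR 4.0.16 quasi-likelihood and DESeq2 1.42.0 on recovered reads, a replicate block, the clone as a random block, reads summed per clone, no clone term, and each library and each clone left out. All members were named, as were genes of the wider and proneural lists that passed in a genotype comparison or passed with a log2 change of at least 0.5 with doxorubicin. Results of 1 gene each of the proneural and adrenergic lists are not reported here. The members and lists were chosen with earlier results of these data known.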

Additional observations from a re-analysis of the deposited data

Results flagged for a closer look

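In 36 sets of 4 libraries, 1 for each of the 9 members in each of the 4 groups, the distance of the highest or lowest library to its neighbour was compared with the range of the set. HES6 in libraries labelled TRPM2 KO after doxorubicin was the 1 set in which this share, 0.910, passed the critical value of Dixon's test for 4 libraries. The first KO28 library was at 17.2 normalized CPM and the others at 25.2, 25.9 and 26.01. Chance alone gives about 1 such set in 20.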

How the results depend on the processing

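Members past the threshold numbered 2 and 2 between genotypes (untreated and after doxorubicin), 4 with doxorubicin in Scr, 5 in libraries labelled TRPM2 KO and 0 in the interaction. Without a filter on low values the counts were 1 between genotypes after doxorubicin, 3 with doxorubicin in Scr and 3 in libraries labelled TRPM2 KO. In the last comparison they were 3 without a clone term and 4 with DESeq2. Without clone KO11 they were 1 between genotypes after doxorubicin and 2 in libraries labelled TRPM2 KO, and without clone Scr13 2 in Scr, where HEY1 lost its call and NOTCH1 was not tested, since 1 of the Scr16 libraries was under the filter. Leaving out 1 library gave 2 to 4 untreated, 1 to 3 after doxorubicin, 3 to 5 with doxorubicin in Scr and 3 to 6 in libraries labelled TRPM2 KO.

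Replicate numbers did not pair the libraries (correlations of replicate differences from -0.17 to 0.25). With the replicate block the counts of members were 2, 3, 4, 6 and 0, and of all genes 697, 1365, 2071, 2907 and 25, against 695, 1266, 1748, 2847 and 5. With no filter 368 genes passed between genotypes untreated and 808 with doxorubicin in Scr, and 0 to 53 passed in the interaction over all alternatives that leave out no single library. Leaving out a clone gave 330 (Scr13) and 327 (Scr16) untreated, 510 (KO11) and 575 (KO28) after doxorubicin, 244 (Scr13) and 750 (Scr16) with doxorubicin in Scr and 949 (KO11) in libraries labelled TRPM2 KO.

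Some log2 values that had not passed changed sign, and the cause was not tested. Between genotypes after doxorubicin NOTCH2 was 0.0227 without clone KO11 and 0.0427 without Scr16, and NOTCH3 was -0.0635 without Scr16 and -0.10 without KO28. With doxorubicin DLL3 (-0.0548) and HES1 (-0.21) changed sign in Scr without Scr13, JAG1 (-0.13) without Scr16, and HES6 (0.35) in libraries labelled TRPM2 KO without KO28. In the interaction NOTCH1 was -0.16 with a pseudocount of 0.25, -0.11 with edgeR, -0.13 with DESeq2 and -0.19 without Scr16, NOTCH2 was -0.0800 without Scr13 and -0.0572 without KO28, JAG1 -0.22 without Scr13 and HES6 -0.17 without KO11. With 1 library left out, HEY1 ranged from -0.0151 to 0.24 untreated, HES6 from -0.23 to 9.24e-05 and NOTCH2 from -0.15 to 0.0207 after doxorubicin, HES1 from -0.14 to 0.18 in Scr and HES6 from -0.17 to 0.19 in libraries labelled TRPM2 KO with doxorubicin, and in the interaction HEY1 from -0.0491 to 0.25, NOTCH1 from -0.33 to 0.30 and NOTCH2 from -0.0662 to 0.0959. Of 1399 values under alternatives, 1215 kept direction and side of the threshold, 128 lost the call and 15 gained it. Low read numbers limit NOTCH1 untreated, JAG1 and HES1 in all groups.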
